A study of Arabidopsis thaliana with 8 samples.

Results

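Arrays 4, 5 and 6, hybridised with shoot RNA carrying spike mixes 4, 5 and 6, were compared with arrays 1, 2, 3 and 7 for the genes of the shoot itself. The labels give no such grouping. It was taken from the main axis of variation of these same signals, so the counts and differences below describe 7 of the 8 arrays and carry no test. Each mix had 1 array, and the 8th, hybridised with the reference spike mix, is shown beside the others and enters no mean. Mixes 4, 5 and 6 carry consecutive numbers, so the set of arrays cannot be told apart from anything that follows the mix number, such as the added RNAs or the order of handling. The labels do not name the RNAs in the mixes or their amounts, and do not say whether the shoot RNA came from 1 pool.

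The plants were Arabidopsis thaliana accession Col-1 (stock N3176), grown on agar plates under a photoperiod of 16 h and harvested as whole shoots at the stage of 4 rosette leaves, 6 h into the light period. All 8 arrays share this genotype, stage and organ, and differ by label only in the mix. Total RNA was labelled with biotin and read on the ATH1 GeneChip, an oligonucleotide array on which a probe set (a group of short probes) stands for a transcript.

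A seedling shoot is mostly photosynthetic leaf. Its chloroplasts carry a small genome that encodes core subunits of both photosystems, the cytochrome b6f complex, the ATP synthase and the NDH complex (a plastid NADH dehydrogenase-like electron carrier), together with plastid ribosomal proteins and RNA polymerase subunits. Most of these genes lie in operons, groups of neighbours transcribed together and then cut into smaller RNAs. Nuclear genes supply the light-harvesting proteins, the remaining photosynthetic subunits and the other machinery of the cell, including the ATG8 proteins, ubiquitin-like proteins that attach to the autophagosome membrane, and the SWEET proteins, which carry sugars across membranes.

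Of the 22810 probe sets, 64 manufacturer's controls and 15 probe sets that spanned at least 16-fold over the 8 arrays were set aside, which left 22731 native probe sets. Of these, 11394 had a mean signal over the 7 arrays of at least 42.5 MAS5 units, the median of the table, and are called the measured range below. A probe set was called when the signals on arrays 4, 5 and 6 did not overlap those on arrays 1, 2, 3 and 7 and the mean log2 difference was at least 0.5, a 1.41-fold difference. Differences are given throughout as arrays 4 to 6 minus arrays 1, 2, 3 and 7. In bulk RNA, fewer cells of a type and less RNA per cell cannot be told apart.

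The differences were small. Of the measured range, 53 probe sets (0.465%) were called higher on arrays 4, 5 and 6 and 86 (0.755%) were called lower, 139 in all (1.22%). The largest difference was 0.94 on the log2 scale among the higher (1.92-fold) and -1.02 among the lower (2.03-fold). Across the measured range the median difference was 0.003, and 83.7% of probe sets lay within 0.25 log2 of 0. Without the size threshold, 1041 probe sets (9.14%) were apart and higher and 1048 (9.2%) were apart and lower, 2089 in all (18.3%). These shares are the background for every count below, and because the arrays were chosen on the same signals they do not measure how unusual the split is.

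Arrays 4, 5 and 6 did not form a tight set. The median absolute log2 difference between 2 arrays, taken over the measured range, was 0.11 between arrays 4 and 5, but 0.17 between arrays 4 and 6 and 0.16 between arrays 5 and 6. Pairs among arrays 1, 2, 3 and 7 differed by 0.088 to 0.12, and pairs across the split by 0.14 to 0.17. Array 6 was therefore about as far from arrays 4 and 5 as from the other set. The reference array lay nearest to array 5, at 0.12, and farthest from array 6, at 0.17, and it differed from arrays 1, 2, 3 and 7 by 0.13 to 0.14. The median SD of log2 signal was 0.13 over arrays 4, 5 and 6 and 0.10 over arrays 1, 2, 3 and 7.

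**Figure D1:**
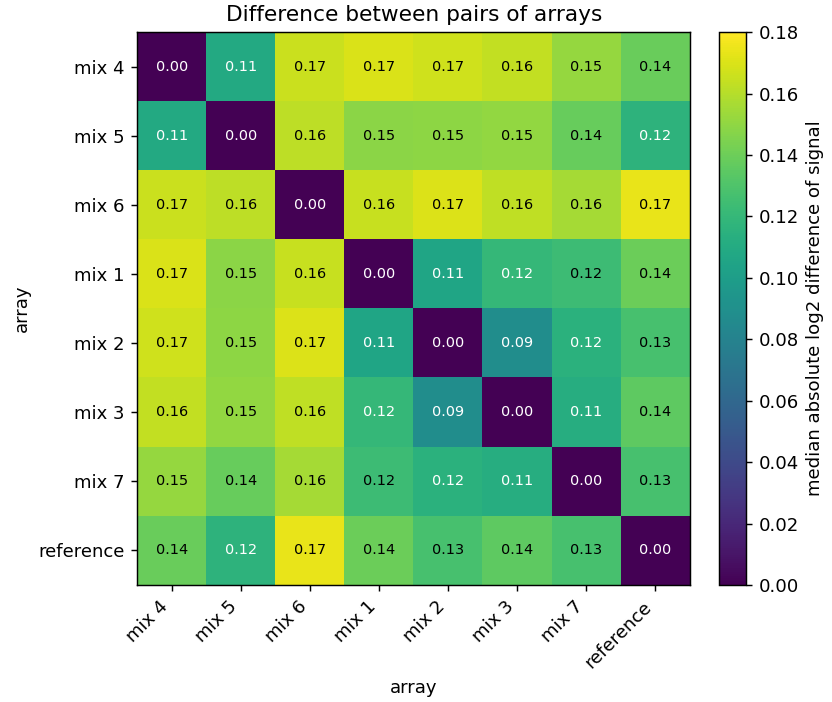
Median absolute log2 difference of signal between every pair of the 8 arrays over the measured range, as the colour and number of each cell (arrays on both axes). Arrays 4 and 5 differ by 0.11 and the 4 arrays 1, 2, 3 and 7 by 0.088 to 0.12, while array 6 lies at 0.16 to 0.17 from every other array.

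The array that lay farthest from the mean of arrays 1, 2, 3 and 7 varied from gene to gene. Among the 53 higher probe sets it was array 4 in 25, array 6 in 22 and array 5 in 6. Among the 86 lower probe sets it was array 4 in 35, array 5 in 29 and array 6 in 22. The reference array lay inside the range of arrays 1, 2, 3 and 7 for 33 of the 53 higher probe sets and inside the range of arrays 4, 5 and 6 for 5. For the 86 lower probe sets it lay inside the range of arrays 1, 2, 3 and 7 for 22, inside that of arrays 4, 5 and 6 for 28 and between both ranges for 29. It was nearer to the mean of arrays 4, 5 and 6 in 13 of the 53 higher and in 44 of the 86 lower probe sets.

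With 1 array left out the ranges have fewer points to overlap, and the counts were then larger in most cases. Without array 6 there were 100 higher and 178 lower probe sets, of which 41 and 73 were among the 53 and 86. Without array 5 there were 99 higher and 127 lower, and without array 7 there were 88 higher and 125 lower. Scaling the arrays to a common median in place of the deposited scale gave 29 higher and 158 lower, and it moved the median difference of the measured range to -0.06. All 29 were among the 53 higher probe sets, and all 86 lower probe sets were among the 158.

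The called probe sets were dimmer than the measured range as a whole. The median mean signal was 56.3 among the higher and 78.3 among the lower, beside 116 over the measured range. All 139 lay above the floor of 12.9 on all 8 arrays. The median length of the gene on the TAIR10.1 assembly was 2916 bp for the 26 higher genes and 2147 bp for 45 lower genes, beside 2365 bp for 5954 genes of the measured range. Above the dimmest part of the range the split had little common shift. For probe sets between signals of 59.9 and 4495, the median difference in 5 bins of equal size ran from -0.02 to 0.02. In the dimmest bin of the range, from 42.7 to 59.9, it was 0.04. There 209 of 1894 probe sets were apart and higher while 108 were apart and lower. The median signal of the higher probe sets, 56.3, falls in this bin.

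Below the measured range the arrays did differ together. The 25th percentile of signal was 14.0, 14.0 and 14.8 on arrays 4, 5 and 6, and 11.8 to 12.6 on arrays 1, 2, 3 and 7, so the sets did not overlap. The share of all probe sets, controls included, above the floor was 76.1%, 76.2% and 77.0% on the first and 73.6% to 74.6% on the second. The reference array, at 11.9 and 73.7%, lay with arrays 1, 2, 3 and 7. Between signals of 13.2 and 20.5 the median difference was 0.19, and 288 of 1894 probe sets were apart and higher while 57 were apart and lower. Quantile normalization, which gives every array the same distribution of signals, brought this median to 0.04.

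**Figure D2:**
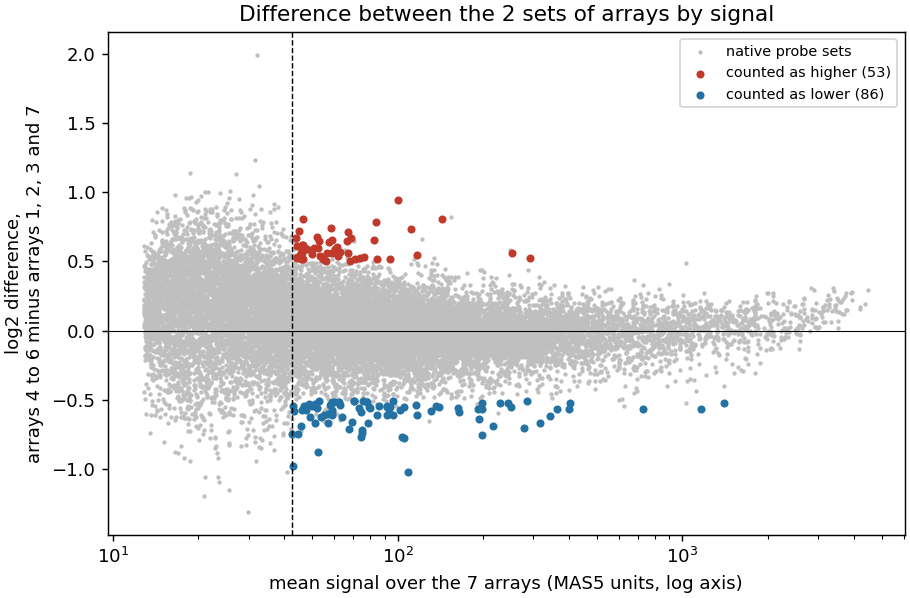
Mean log2 difference (arrays 4 to 6 minus arrays 1, 2, 3 and 7) against the mean signal over the 7 arrays in MAS5 units on a log axis, 1 point per native probe set, with the 53 higher in red, the 86 lower in blue and the lower edge of the measured range as a dashed line. The cloud leans above 0 below the dashed line, where the median difference reaches 0.19 in the bin from 13.2 to 20.5, and lies around 0 to the right of it.

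Of the 53 higher probe sets 26 had 1 gene, and 4 of these had a gene symbol beyond a locus number: EX1, NRPB7, KOM and TBL16. The largest difference was at AT5G61330. Its signal was 126, 138 and 148 on arrays 4, 5 and 6, and 84.0, 74.7, 58.4 and 70.6 on arrays 1, 2, 3 and 7, with 71.5 on the reference array. The log2 difference was 0.94, or 1.92-fold, with SDs of 0.12 and 0.22 log2 over the 3 and the 4 arrays. The sets were well apart, and the reference array lay among the 4.

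EX1 encodes EXECUTER1, a chloroplast protein needed for the response to singlet oxygen made in the plastid. It read 189, 202 and 177 on arrays 4, 5 and 6 and 117, 122, 93.4 and 102 on arrays 1, 2, 3 and 7, a log2 difference of 0.81. The reference array, at 104, lay among the 4. AT4G18580 read 109, 109 and 113 against 56.8, 59.0, 74.6 and 66.4 (0.79), and its 3 high arrays lay closer to each other than its 4 low ones. AT2G41200 read 74.7, 71.0 and 82.4 against 49.0, 46.0, 41.4 and 45.9 (0.74). The same separation, with array 7 nearest to the higher set, held at AT3G23900, which read 155, 140 and 136 against 80.7, 81.6, 76.6 and 109 (0.73).

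NRPB7, a subunit of RNA polymerase II, was called on a difference of 0.66, but 1 array carried most of it. It read 70.3, 65.5 and 79.4 on arrays 4, 5 and 6 and 58.2, 64.3, 53.5 and 21.2 on arrays 1, 2, 3 and 7, so that array 2 lay just below array 5. Array 7 was likewise the low one at AT2G20950, with 80.5, 75.4 and 58.1 against 51.3, 53.0, 54.2 and 28.7 (0.64), and at AT2G14850, with 56.8, 70.2 and 71.9 against 45.5, 42.6, 56.3 and 28.6 (0.65). At these 3 genes the other arrays of the set reached close to arrays 4, 5 and 6. In AT4G01280, by contrast, the 3 arrays sat at 106, 103 and 103 and the other 4 at 55.1, 65.3, 63.4 and 83.9 (0.65).

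KOM, known as KOMPEITO, encodes a rhomboid-like protein described for the pollen wall. It read 48.0, 53.8 and 73.7 on arrays 4, 5 and 6 and 37.9, 35.5, 37.4 and 39.6 on arrays 1, 2, 3 and 7 (0.61), with array 6 highest and the 4 others tight. TBL16, of the trichome birefringence-like family whose members acetylate wall polysaccharides, read 84.5, 76.4 and 62.7 against 41.4, 53.9, 52.3 and 49.7 (0.59), with array 4 highest. The 2 remaining genes of the 12 largest were AT5G22540 (0.67) and AT2G02590 (0.64). Of probe sets without a single gene, 261496_at (0.81), 245268_at (0.72) and 266053_at (0.71) were highest. At the threshold itself AT1G17520 was just inside and AT4G02940 just outside, both at 0.50 when rounded.

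Of the 86 lower probe sets 49 had 1 gene, and 9 of these had a symbol beyond a locus number: GRXC1, MYC4, QQT2, psbJ, psbT, ARLA1C, LSM6B, ATG8E and ndhA. The largest difference was at AT4G09890, which read 76.6, 63.7 and 65.2 on arrays 4, 5 and 6 and 141, 146, 134 and 135 on arrays 1, 2, 3 and 7. The log2 difference was -1.02, with SDs of 0.14 and 0.06 log2. Both sets were tight, and the reference array, at 100, lay between them. AT2G25190 read 27.8, 18.3 and 38.4 against 50.4, 60.0, 63.7 and 41.4 (-0.98), and array 7 lay just above array 6.

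GRXC1, a glutaredoxin, a small enzyme that reduces disulfides with glutathione, read 74.6, 69.1 and 81.8 on arrays 4, 5 and 6 and 130, 121, 124 and 139 on arrays 1, 2, 3 and 7. The difference was -0.78, and the reference array, at 103, lay between the sets as it did for AT4G09890. MYC4, a bHLH transcription factor of jasmonate signalling, read 30.6, 44.4 and 40.7 against 58.9, 69.5, 57.9 and 56.3 (-0.67). Here the reference array, at 42.3, lay within arrays 4, 5 and 6. Of the 12 antioxidant and thioredoxin genes that include GRXC1, 2 were apart and higher and 2 apart and lower, and the median was 0.03.

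AT3G59780 showed the split between arrays 4 and 5 on the one side and array 6 on the other. It read 198, 197 and 327 on arrays 4, 5 and 6 and 381, 402, 376 and 330 on arrays 1, 2, 3 and 7 (-0.67), so that array 6 lay just below array 7. Its reference array, at 542, lay above all 7. AT4G31790 was tight on arrays 4, 5 and 6, with 53.5, 51.7 and 50.1 against 77.7, 85.2, 76.1 and 89.5 (-0.66), and the reference array at 50.9. The rest of the 12 were AT5G40970 (-0.74), AT1G44835 (-0.74), AT3G55170 (-0.72), AT2G18740 (-0.67), AT4G34660 (-0.67) and AT5G51390 (-0.63).

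QQT2, a nucleotide-binding protein known from embryo development, read 39.6, 49.6 and 38.9 against 73.1, 65.9, 63.9 and 56.7 (-0.61). ARLA1C, a small GTPase of the ARF-like family, read 102, 105 and 124 against 165, 200, 137 and 150 (-0.55). LSM6B is a subunit of the Sm-like ring that binds RNA ends in splicing and decay. It read 81.5, 89.4 and 77.5 against 130, 138, 114 and 105 (-0.55), with arrays 3 and 7 nearest to the lower set. Of probe sets without a single gene, 259822_at (-0.88), 260078_at (-0.77) and 263137_at (-0.77) were lowest; 260078_at read 78.8 on array 3 and 136 to 149 on arrays 1, 2 and 7. At the threshold 265107_s_at was just inside and AT1G28240 just outside, both at -0.50.

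**Figure D3:**
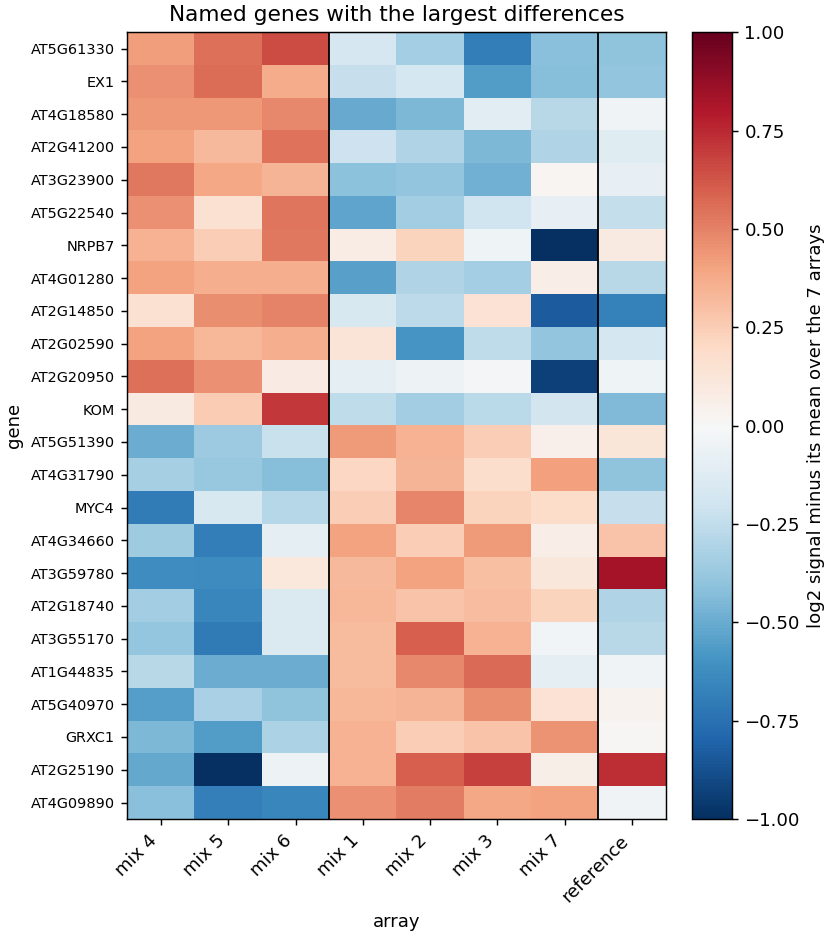
Log2 signal minus its mean over the 7 arrays, by gene (rows) and array (columns), for the 12 genes with the largest difference in each direction; red is above and blue below the mean, and the colour stops at 1 on either side. AT5G61330 and EX1 are red on arrays 4, 5 and 6 and blue on the other 5, AT4G09890 is the reverse with the reference array near 0, and at NRPB7 and AT2G20950 the blue rests on array 7.

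The chloroplast genome held 3 of the called lower genes. Of 66 chloroplast-encoded genes in the measured range, 43 lay below 0 and 23 above, with a median of -0.12. Of the 66 genes, 11 (16.7%) were apart and lower, beside the background of 9.2%, and 2 (3.03%) were apart and higher, beside 9.14%. The called genes were psbJ, psbT and ndhA. Relative to each gene's mean over the 7 arrays, the list medians overlapped between the sets. The photosynthesis and NDH genes lay at -0.045, 0.0001 and -0.045 on arrays 4, 5 and 6. On arrays 1, 2, 3 and 7 they lay at 0.102, -0.002, -0.009 and 0.114. The other chloroplast genes lay at -0.19, -0.12 and 0.07 against 0.23, 0.02, 0.03 and 0.09, with array 6 above arrays 2 and 3. Under the common median the photosynthesis and NDH genes had a median of -0.13 in place of -0.07, and the other chloroplast genes -0.31 in place of -0.25. Under quantile normalization the medians were -0.09 and -0.25.

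psbJ encodes a small subunit of photosystem II. It read 795, 954 and 984 on arrays 4, 5 and 6 and 1469, 1341, 1323 and 1252 on arrays 1, 2, 3 and 7, a difference of -0.57. psbT, another small subunit of photosystem II, read 494, 527 and 709 against 890, 825, 854 and 801 (-0.56). Array 4 was lowest and the reference array, at 920 for psbJ and 620 for psbT, lay within arrays 4, 5 and 6 in both. ndhA, a membrane subunit of the NDH complex, read 881, 1231 and 1271 against 1695, 1508, 1550 and 1644 (-0.52), and the reference array at 1167 again lay within the lower set.

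By function, the ribosomal proteins and the RNA polymerase had the lowest medians. The 14 ribosomal protein genes had a median of -0.29, with 11 below 0 and 3 apart and lower (rps2, rpl20 and rps19). The 3 RNA polymerase genes were rpoC2 (-0.44, apart and lower), rpoC1 (-0.30) and rpoA (-0.05). The 9 NDH genes had a median of -0.15, with ndhA and ndhC apart and lower. The 15 photosystem II genes had a median of -0.07, the 6 cytochrome b6f genes -0.09, the 5 photosystem I genes -0.04 and the 6 ATP synthase genes 0.04. Of the ATP synthase genes, atpI (-0.44) and atpF (-0.24) were nonetheless apart and lower, the same share as in the RNA polymerase (33.3%). In cytochrome b6f petG (-0.40) was apart and lower too, as were psbJ and psbT in photosystem II. The 2 genes apart and higher were psaB (0.26), a reaction centre protein of photosystem I, and accD (0.17), a subunit of the acetyl-CoA carboxylase of fatty acid synthesis. psbD (0.25), clpP (0.22), rps4 (0.21), ndhK (0.21) and petN (0.20) had differences above that of accD, but their arrays overlapped.

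Neighbours in the same operon differed from each other. In the psbE, psbF, psbL and psbJ operon, the differences were 0.04, 0.15, -0.50 and -0.57 in that order. In the psbB operon, psbB was at 0.02, psbT at -0.56, psbH at -0.08, petB at 0.09 and petD at -0.04. In the operon that begins with rps2, rps2 was at -0.24, atpI at -0.44, atpH at 0.05, atpF at -0.24 and atpA at 0.02. Among the 33 genes with a span up to 543 bp the median was -0.18, and among the 33 longer genes it was -0.04. Gene length and function go together here, since many photosystem subunits and ribosomal proteins are short, and their parts were not tested.

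Array 6 did not always follow arrays 4 and 5. At 26 of the 66 genes (39.4%) arrays 4 and 5 both lay below arrays 1, 2, 3 and 7. Array 6 was below as well at 11 of these and not at 15, and the reference array was below at 25 of the 26. Over the measured range arrays 4 and 5 were both below at 17.0% of probe sets, 1934 in number. Array 6 was below as well at 1048 of them and not at 886, and the reference array was below at 1127. The gene rps18, for a ribosomal protein, read 384 and 426 on arrays 4 and 5, 714 on array 6, 696 to 739 on arrays 1, 2, 3 and 7, and 456 on the reference array.

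The photosystem II gene psbL had the same form, with 385 and 410 on arrays 4 and 5, 688 on array 6, 635 to 763 on the other 4 and 432 on the reference array. So had rpl32, with 791, 767 and 1334 against 1092 to 1440, and 826 on the reference array. These 2 genes and rps18 had mean differences of -0.36 to -0.54 but were not apart, because array 6 lay inside the range of the 4. The gene psbN ran the other way, with 119 on array 4, 81.8 on array 5, 65.0 on array 6 and 116 to 124 on the others.

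**Figure D4:**
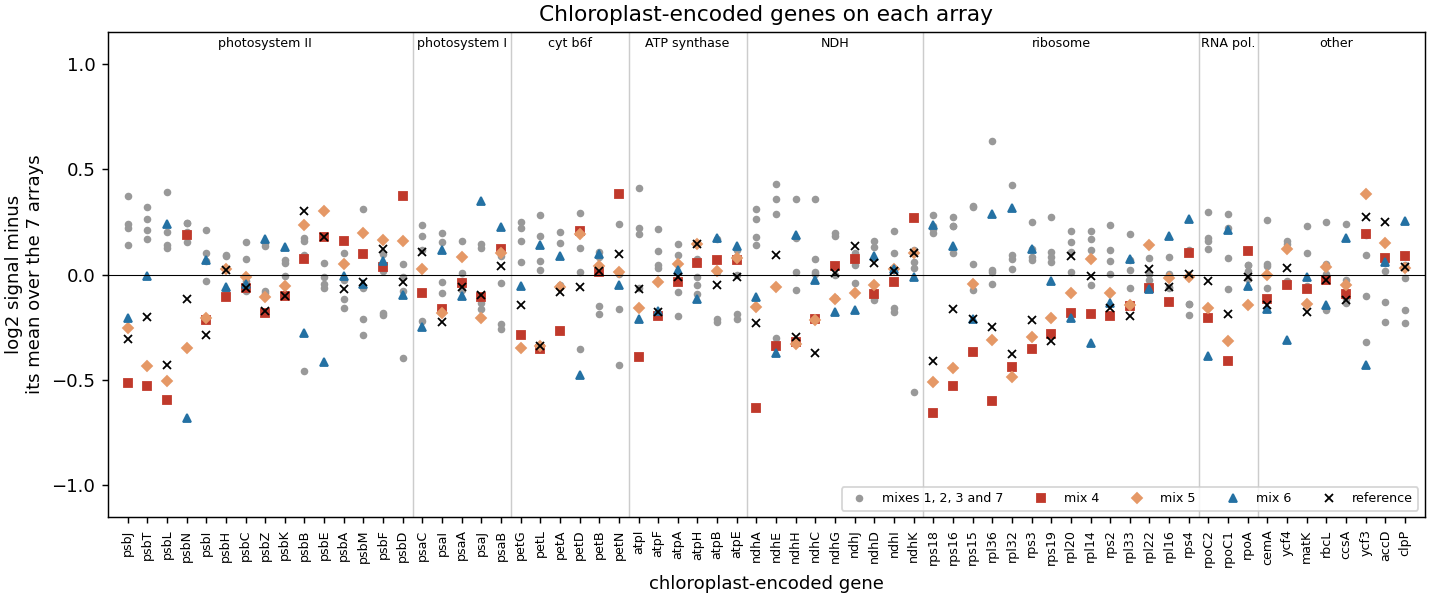
Log2 signal of each chloroplast-encoded gene minus its mean over the 7 arrays, grouped by function along the horizontal axis and ordered by difference within each group; grey points are arrays 1, 2, 3 and 7, coloured symbols arrays 4, 5 and 6, and crosses the reference array. At rps18, psbL and rpl32 arrays 4 and 5 and the reference array lie low and array 6 lies with the grey points, while at psbJ, psbT and ndhA all 3 coloured symbols lie below them.

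The medians of the listed nuclear photosynthesis genes leaned slightly the other way, with no gene called. The 8 photosystem and electron transport genes had a median of 0.14 with none apart, the 5 light-harvesting genes 0.07 and the 4 genes of the Calvin cycle and photorespiration 0.10. The light-harvesting list held only LHCB4.1, LHCB4.2, LHCB4.3, LIL3:1 and LIL3:2, and the Calvin cycle list only RCA, SBPASE, PRK and HPR. Their medians describe these genes alone. In all 3 lists arrays 2 and 3 lay low, while arrays 1 and 7 lay near arrays 4, 5 and 6. Relative to each gene's mean over the 7 arrays, the photosystem list lay at 0.04, 0.06 and 0.17 on arrays 4, 5 and 6. On arrays 1, 2, 3 and 7 it lay at 0.07, -0.17, -0.16 and 0.03. On arrays 2 and 3 the light-harvesting list lay at -0.10 and -0.13, and the Calvin cycle list at -0.13 and -0.17. LHCB4.1, a minor antenna protein of photosystem II, read 4221, 4301 and 4427 on arrays 4, 5 and 6 and 3899, 3358, 3377 and 3719 on arrays 1, 2, 3 and 7 (0.27). Its sets were apart, but under quantile normalization the difference was 0.06 and they overlapped. LIL3:2, also in the light-harvesting list, was apart and lower, with 763, 808 and 865 against 931, 900, 889 and 916 (-0.16). Under quantile normalization 1 of the 5 light-harvesting genes was apart and lower and none was apart and higher. Under the common median the medians of the 3 lists were 0.08, 0.01 and 0.04, and under quantile normalization 0.06, 0.02 and 0.02. Quantile normalization left 1 gene apart and higher in the photosystem list and 1 in the Calvin cycle list. RCA, the activase of Rubisco, read 3458, 3431 and 3546 against 3514, 2821, 2470.9 and 3268 (0.22), and PSAE-1 of photosystem I had the same form (0.23): arrays 2 and 3 were low while array 1 lay with arrays 4, 5 and 6.

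The ATG8 family was lower in most members. Of the 8 autophagy genes with an ATG symbol in the measured range, 7 ATG8 genes and ATG3, the enzyme that conjugates ATG8, 5 were apart and lower (62.5%, beside the background of 9.2%), none was apart and higher, and the median was -0.27. This group was found while the values were in view. The 5 apart were the same in number under the common median and under quantile normalization, where the medians were -0.32 and -0.26.

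ATG8E was called: it read 289, 295 and 385 on arrays 4, 5 and 6 and 467, 500, 469 and 409 on arrays 1, 2, 3 and 7 (-0.52), and 323 on the reference array. ATG8B read 57.7, 53.6 and 69.2 against 73.7, 79.6, 80.8 and 75.1 (-0.37). ATG8G read 64.8, 63.9 and 69.0 against 79.8, 86.8, 83.7 and 84.7 (-0.35). In these 3 genes array 6 was the nearest of the 3 to the other set. ATG8H (-0.36) and ATG8C (-0.19) were apart and lower as well. ATG8F, the brightest, was not apart, with 1029, 1028 and 1300 against 1277, 1129, 1214 and 1198 (-0.11), and ATG8D (0.12) and ATG3 (0.03) overlapped too. The reference array lay at or below the lowest of arrays 1, 2, 3 and 7 for the 5 genes that were apart.

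The SWEET sugar transporters differed in both directions. Of 6 genes with a SWEET symbol, SWEET1, SWEET13 and SWEET11 were apart and higher (50%, beside the background of 9.14%). SWEET17 was apart and lower (16.7%, beside 9.2%), and these counts were the same under both scalings. Like the ATG genes, this group was chosen after values were seen. SWEET1, a glucose carrier, read 161, 151 and 163 on arrays 4, 5 and 6 and 98.8, 117, 130 and 139 on arrays 1, 2, 3 and 7 (0.40). SWEET11, which exports sucrose from leaf phloem parenchyma, read 881, 748 and 895 against 707, 667, 698 and 708 (0.27). SWEET13, of the same subgroup of sucrose carriers, read 83.2, 74.1 and 84.3 against 66.3, 65.7, 64.1 and 66.4 (0.29). In all 3 array 5 was the lowest of the higher set.

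SWEET17, a fructose carrier of the vacuole membrane, read 274, 237 and 333 against 354, 364, 353 and 339 (-0.34), with array 5 lowest and array 6 near the others. SWEET16, also of the vacuole membrane, spanned 127 to 212 on arrays 4, 5 and 6 and 117 to 161 on the other 4 and was not apart (0.21). SWEET2 was not apart either (-0.08), and neither was SAG29 (0.05), a further member of the family under another symbol.

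**Figure D5:**
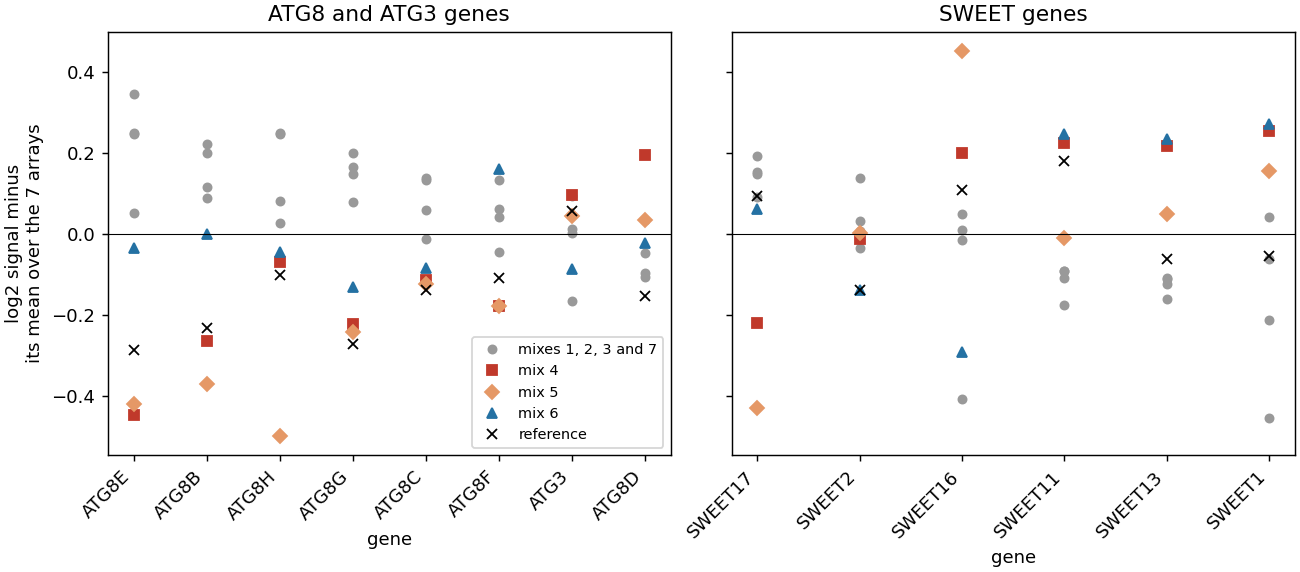
Log2 signal minus its mean over the 7 arrays for the ATG8 genes and ATG3 (left) and the 6 genes with a SWEET symbol (right); grey points are arrays 1, 2, 3 and 7, coloured symbols arrays 4, 5 and 6, and crosses the reference array. For ATG8E, ATG8B, ATG8H, ATG8G and ATG8C all coloured symbols lie below the grey points, and for SWEET11, SWEET13 and SWEET1 all lie above them.

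Smaller groups had a few members apart, beside the background of 9.14% apart and higher and 9.2% apart and lower. Of 6 cytochrome P450 genes, a family of oxygenases, 3 were apart and lower, and all 6 were of the CYP71B subfamily. CYP71B34 read 101, 106 and 104 against 124, 131, 133 and 130 (-0.33). CYP71B26 (-0.28) and CYP71B28 (-0.22) followed, and 2 of the 6 were apart under quantile normalization. LSM3A, of the same Sm-like ring as LSM6B, read 36.2, 41.5 and 39.7 against 51.2, 50.7, 47.0 and 53.6 (-0.37), while LSM1A (0.10) and LSM1B (0.02) were not apart. TBL18 read 93.6, 80.2 and 77.4 against 58.0, 66.8, 57.1 and 66.5 (0.43). It and TBL16 were the 2 apart and higher of 10 genes of that family, and 2 were under each scaling. Of 11 ubiquitin-conjugating enzyme genes, UBC20 (0.41), UBC22 (0.23) and UBC30 (0.17) were apart and higher, and under the common median 2 were.

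Single members of other lists were apart at differences under the threshold. GUT2, an enzyme of xylan synthesis in the secondary wall, read 99.9, 88.8 and 84.2 against 65.6, 60.8, 71.4 and 67.3 (0.46). FMA, known as FAMA, the bHLH factor of guard cell differentiation, read 72.6, 57.0 and 59.7 against 47.9, 47.3, 53.6 and 34.9 (0.47). WES1, a GH3 enzyme that conjugates auxin to amino acids, read 256, 260 and 230 against 198, 197, 216 and 203 (0.29). These 3 were higher, and the next 2 were lower. COR15B, a cold-regulated chloroplast protein, read 488, 501 and 447 against 667, 577, 553 and 608 (-0.33). CRR41, a nuclear-encoded factor needed for the chloroplast NDH complex, read 133, 133 and 84.4 against 154, 170, 156 and 149 (-0.46), with array 6 far below the others.

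Of 49 gene lists 33 had at least 3 members in the measured range, and 28 of these held no called gene, where 1.22% of the measured range was called. Most of the lists are short, so a list without a called gene is no result about its function. Their medians ran from -0.25 (the chloroplast genes outside photosynthesis and the NDH complex) to 0.14 (the nuclear photosystem genes). The 8 genes with a VPS symbol, of endosomal sorting and vacuolar protein transport, had none apart and a median of -0.04. The 21 UDP-glycosyltransferase genes had none apart and higher, 2 apart and lower and a median of -0.01, and of the 10 tubulin, actin and microtubule genes none was apart. The 7 beta-glucosidase genes with a BGLU symbol had none apart either, with a median of -0.07. Under the common median 2 of these 7 and 1 of the 10 were apart and lower, beside 1721 of 11394 probe sets. Under quantile normalization 1 of the 7 and none of the 10 were, beside 1015 of 11394.

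The labelled organ was set against marker genes. The pollen and flower markers ANX1, ANX2 and AT5G07230 lay at or under the floor on all 8 arrays, as did the root marker LBD29. Of the 5 root markers PYK10, a root and hypocotyl glucosidase, was bright at 838 to 1056, and EXPA7, a root hair expansin, read 17.2 to 29.3. The summed signal of the 5 was 943 to 1126 on arrays 4, 5 and 6 and 1026 to 1142 on arrays 1, 2, 3 and 7, so the sets overlapped. The seed marker OLEO3, an oil body protein, read 32.1, 31.6 and 27.1 against 18.2 to 23.6, below the measured range where dim probe sets as a whole were higher. The summed signal of the leaf markers FMA and TRY was 91.4 to 95.9 against 64.8 to 79.0. FMA alone separated the arrays: TRY, a regulator of trichome spacing that lay below the measured range, read 20.8, 38.9 and 31.7 against 31.1, 22.1, 22.2 and 29.9, which overlapped. The part of any cell type in the differences above was not tested.

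Control probe sets took no part in the choice of arrays, and for these the difference was tested with an exact two-sided permutation test over the 35 ways to pick 3 of 7 arrays, with Benjamini-Hochberg adjustment over 5 measures. The smallest p this design allows is 0.0571, so no measure could reach 0.05. The 18 hybridisation control probe sets differed by -0.20 (p = 0.457, adjusted 0.762, exact permutation). The 25S ribosomal RNA probe set read 495, 1191 and 272 on arrays 4, 5 and 6 and 2198, 1774, 592 and 494 on arrays 1, 2, 3 and 7, a difference of -0.93 (p = 0.343, adjusted 0.762, exact permutation). Its arrays differed widely within each set.

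The ratio of 3' to 5' probe sets, which rises when RNA is shortened from its 5' end, was 2.03, 1.83 and 2.07 for actin on arrays 4, 5 and 6 and 1.97, 1.80, 2.00 and 2.17 on the others (-0.01, p = 0.971, adjusted 0.971, exact permutation). For ubiquitin the log2 difference was -0.01 (p = 0.971, adjusted 0.971, exact permutation), and for GAPDH it was 0.12 (p = 0.171, adjusted 0.762, exact permutation). The sign of the actin and ubiquitin differences turned when single arrays were left out. Among single probe sets for shoot genes on the control panel, the actin 3' probe set read 1600, 1571 and 1480 against 1420, 1330, 1371 and 1403. The actin middle probe set read 1640, 1615 and 1718 against 1456, 1374, 1396 and 1374. Both were apart and higher, and the GAPDH 5' probe set was apart and lower (-0.13).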

How the data were processed

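Signals of 22810 probe sets on 8 ATH1 arrays were analysed. Per the submitters' processing notes the deposited intensity values were made with MAS5, in a version not given in these sources. They are linear with a 2% trimmed mean of 100.0 on each array and were used without further scaling. A floor of 12.9, the 25th percentile of all signals, replaced lower values ahead of the log2 step. Gene names came from the array platform's table and from a RefSeq table (TAIR10.1): 13513 had 1 gene, 503 had several, 8794 are unnamed here, and 13436 were matched. Called probe sets had ranges that did not overlap between the 3 and the 4 arrays and a mean log2 difference of at least 0.5.

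The arrays, the 49 gene lists and the rules were chosen with earlier results of these data known, and the gene families by symbol stem (5 or more members) and the lists of called genes with a symbol were added after values were seen. Lists were built by patterns on gene symbols and synonyms, and some patterns also caught unrelated genes. The vesicle traffic, glucosinolate and cold, drought and abscisic acid lists were mixed in this way and are not described by function. Other lists were mixed as well, among them the chlorophyll and carotenoid, heat shock, cell cycle and defence lists. All of these enter the counts of lists. Named genes were the 12 with the largest difference in each direction, the 3 without a single gene, the 2 largest per list with at least 3 members, and those beside the threshold. Others named in the text were chosen after their values were seen. The design included the poly(A) controls among the tested measures; the 27 probe sets read at most 25.5 and were not tested. Each mix had 1 array, so the spread between arrays is the only measure of error, and the number of arrays limits precision. Alternatives were the scaling, floor, signal range, threshold, median in place of mean, the reference array added, and leaving out each array. The calculations were tested on simulated data and used Python 3.11.15, numpy 2.4.6, pandas 2.3.3 and scipy 1.17.1.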

Additional observations from a re-analysis of the deposited data

Results flagged for a closer look

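Within arrays 1, 2, 3 and 7, 9 of 174 measures examined had 1 array far from the other 3, with a gap to the nearest above Dixon's 95% critical value for the range; chance gives about 1 in 20 groups. On array 7, NRPB7 lay at 4.41 log2 (21.2 units) and AT2G20950 at 4.84 (28.7 units), both far below arrays 1, 2 and 3. On array 3, 260078_at lay at 6.30 (78.8 units), below the others, and 265107_s_at at 6.15 (71.0 units), above them. On array 1, BGLU33 lay at 6.33 (80.5 units) and TET5 at 4.42 (21.4 units), both below the others. The median level of the histone genes on array 1, relative to each gene's mean over the 7 arrays, was 0.0945 log2, above the others. On array 2, scpl29 lay at 7.33 (161 units), below the others, and ALDH2C4 at 8.88 (472 units), above others that read 464 to 465. The part of these arrays in the called differences of NRPB7 and AT2G20950 is their single low value; no cause was tested.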

How the results depend on the processing

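No paired analysis was possible because each mix had 1 array and the groups share only the number 1. The counts of 53 higher and 86 lower became 29 and 158 under a common median, 469 and 168 over all native probe sets, 4 and 25 above the 75th percentile of signal, 351 and 413 at a threshold of 0.3, and 0 and 1 at a threshold of 1. Adding the reference array to arrays 1, 2, 3 and 7 gave 55 higher and 44 lower, of which 45 and 43 were among the 53 and 86. The higher then outnumbered the lower. Leaving out 1 array gave 57 to 100 higher and 83 to 178 lower. Under quantile normalization there were 42 and 100, of which 41 and 78 were among the 53 and 86. The median of the chloroplast photosynthesis and NDH genes was -0.13 under the common median and -0.09 to -0.05 without 1 array; that of the other chloroplast genes was -0.26 to -0.17. Without 1 array the 25S difference ran from -1.49 to -0.43, the hybridisation controls from -0.43 to -0.05, GAPDH from 0.08 to 0.19, actin from -0.053 to 0.048 and ubiquitin from -0.051 to 0.058. The sign turned for actin without array 5 (0.048) and array 7 (0.037), and for ubiquitin without array 1 (0.022), array 3 (0.0024) and array 6 (0.058). Among the values of named genes under the alternatives, 1749 stayed within 1 SD, 6 moved further and no called value changed sign. Of the gene list values 436 were classed as the same and 73 as moved. For the number of probe sets called higher, 9 values were classed as the same and 8 as moved. For the number called lower these were 10 and 7. Signals below 42.5 were left out of the counts because the distribution of dim signals differed between the sets.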
